A study of Mus musculus with 6 samples.

Results

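The genes described here are 10 early response genes, Fos, Fosb, Fosl1, Fosl2, Jun, Junb, Jund, Atf3, Egr1 and Ier3. They were taken by symbol from the 23358 gene entries of the count table, and all 10 were present. RNA had been sequenced from 6 NT3 tumors, each from a different female mouse. NT3 is a NIK allele without the part of the protein that TRAF3 binds, placed behind a floxed stop cassette at ROSA26, so that every tumor of both lines carries the same active NF-κB inducing kinase. In 3 Osx-Cre;NT3 mice (tumors 13, 18 and 25, named by mouse number) the allele was switched on by a doxycycline-repressed Cre under the Osterix (Sp7) promoter, after doxycycline had been withdrawn at weaning, on a background of C57Bl/6J mixed with CD1. In 3 FSP1-Cre;NT3 mice (tumors 27, 29 and 36) it was switched on by Cre under the FSP1 (S100a4) promoter, crossed from FVB/n, which is also active in some myeloid cells. Tumors 27 and 36 were perineal, and tumor 29 and all 3 Osx-Cre;NT3 tumors were on the trunk. Tumor latency was 150, 168 and 115 days in tumors 13, 18 and 25, and 101, 72 and 52 days in tumors 27, 29 and 36. Line, strain background, site and latency therefore differ together, and tumor 29 is the only tumor that has the FSP1-Cre line without the perineal site. Each sample is bulk tumor, in which fewer cells of a type and less RNA per cell cannot be told apart.

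AP-1 is a transcription factor made of pairs of basic leucine zipper proteins. Jun proteins (Jun, Junb, Jund) pair with each other or with Fos proteins (Fos, Fosb, Fosl1, Fosl2), whereas Fos proteins need a Jun partner to bind DNA. Most of these genes are immediate early genes, whose transcription starts within minutes of a growth factor, stress or injury signal without new protein synthesis and whose mRNA is short-lived. Atf3 is a stress-induced basic leucine zipper factor, Egr1 a zinc finger factor driven by serum response factor and MAP kinase signals, and Ier3 an early gene that limits cell death and is a known NF-κB target.

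Library totals ranged from 51824408 to 163297772 counts, so 3 counts corresponded to 0.0184 to 0.0579 CPM (counts scaled to a library of a fixed total size) by total count alone. CPM values below are scaled with TMM, edgeR's library scaling factor. The ribosomal entry Rn45s took 5.28% to 13.3% of the counts, with the highest share in tumor 36. The study calls these tumors soft tissue sarcomas, from histology, the Cre expression patterns and staining for the mesenchymal markers αSMA (smooth muscle actin) and vimentin. Vimentin was strong in most tumor cells of Osx-Cre;NT3 mice, but weaker and only at the periphery in FSP1-Cre;NT3 tumors. The study found the tumor cells negative for the blood cell marker CD45 and for S100, used against a melanocytic origin. It also found the epithelial marker CK19 in part of the tumor cells. It considers the skin development terms in its tumor RNA likely to come from overlying skin. Fibroblast markers summed to 5194 to 15001 CPM over the 6 tumors, and basal keratinocyte markers, led by Krt5 and Krt14, to 5687 to 14247 CPM. Tumor 36 stood apart, with simple epithelium markers at 4759 CPM against at most 1188 in any trunk tumor and smooth muscle and myoepithelium markers at 2667 CPM against at most 558. Fold changes by site of most of the 10 genes, and medians by site of the gene lists, are given with and without tumor 36. The cell type markers are given with tumor 36 only.

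The 250 bases before the annotated transcription start are shown for a pair of genes that were higher in both perineal tumors, Fos and Fosb, and a pair whose perineal and trunk levels overlapped, Jun and Junb. The pairs were picked by these levels, and any part of the marked sites in the levels was not tested. The sequences are those of RefSeq on GRCm38.p6, printed 5′ to 3′ on the strand of the gene. Capitals mark κB sites, TGACG (the core of the cAMP response element), TGACATCA (the variant AP-1 site of the Jun promoter) and TATAAA.

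Fos, chr12:85473640-85473889, plus strand: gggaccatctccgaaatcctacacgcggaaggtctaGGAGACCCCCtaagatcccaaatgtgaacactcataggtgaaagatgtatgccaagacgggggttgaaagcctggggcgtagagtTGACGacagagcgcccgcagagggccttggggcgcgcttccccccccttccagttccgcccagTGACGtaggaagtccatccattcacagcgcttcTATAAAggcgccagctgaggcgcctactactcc

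Fosb, chr7:19310046-19310295, minus strand: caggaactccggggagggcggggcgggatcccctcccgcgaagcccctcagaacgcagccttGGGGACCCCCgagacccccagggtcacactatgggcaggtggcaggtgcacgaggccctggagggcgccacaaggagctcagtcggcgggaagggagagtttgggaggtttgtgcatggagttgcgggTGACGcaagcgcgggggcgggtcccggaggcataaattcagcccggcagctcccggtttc

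Jun, chr4:95052223-95052472, minus strand: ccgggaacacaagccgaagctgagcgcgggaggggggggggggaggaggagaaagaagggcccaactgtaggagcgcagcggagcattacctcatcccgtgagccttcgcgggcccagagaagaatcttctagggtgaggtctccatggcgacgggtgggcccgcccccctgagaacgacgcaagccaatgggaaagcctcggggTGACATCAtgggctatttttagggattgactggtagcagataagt

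Junb, chr8:84978749-84978998, minus strand: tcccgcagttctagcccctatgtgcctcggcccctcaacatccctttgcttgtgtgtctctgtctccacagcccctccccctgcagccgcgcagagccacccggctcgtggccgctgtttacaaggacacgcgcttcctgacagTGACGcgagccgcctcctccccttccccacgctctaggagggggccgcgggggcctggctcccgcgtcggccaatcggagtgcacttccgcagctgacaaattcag

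Promoters were found in the RefSeq table for 8 of the 10 genes, the exceptions being Egr1 and Fosl1. Both strands were searched, and positions count back from the base before the start. A κB site was present in 4 of the 8, in Fos at -214 to -205, in Fosb at -188 to -179, in Fosl2 at -182 to -172 as a pair of overlapping matches, and in Ier3 at -92 to -83. The same motif was present in 7.25% of the 32851 mouse promoters of this length. TGACG was present in 4 of 8 (Fos at -129 and again at -66, Fosb at -60, Junb at -106 and Atf3 at -7) against 17.8% of all promoters. TGACATCA was found in 1 of 8, Jun at -45, against 2.93%, and TATAAA in 1 of 8, Fos at -33, against 12.4%. The CArG box, TGACGTCA, TGACTCA and the Egr site GCGTGGGCG were in 0 of 8, against 1.47%, 1.55%, 4.46% and 0.536% of all promoters. These are matches of letters within 1 annotated window per gene, and no binding was measured. Sites farther from the start were not searched, nor was any promoter of Egr1 or Fosl1, so absence from the window is not absence from the gene.

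Junb and Jund were the most abundant of the 10 genes in these tumors. Fosl2 was the highest Fos gene in every tumor, but only narrowly in tumor 36. Levels are compared between genes in RPKM, the deposited values, which scale the counts to the length of the gene model and the size of the library. Junb was at 39.6 to 57.2 RPKM and Jund at 21.3 to 47.5 RPKM over the 6 tumors. The mean levels were 49.6 RPKM for Junb, 32.0 for Jund, 14.3 for Jun, 12.6 for Fosl2, 10.1 for Ier3, 6.16 for Atf3, 5.36 for Fos, 3.81 for Egr1, 1.47 for Fosb and 0.103 for Fosl1. Of the 9 steps in this order, 3 held in 6 of 6 tumors, Jund above Jun, Egr1 above Fosb, and Fosb above Fosl1. In each of these the exact sign-flip test over the 6 tumors gave p = 0.03125, the smallest it can give, and an adjusted p of 0.09375 over the 9 neighbours. Junb was above Jund and Ier3 above Atf3 in 5 of 6 tumors each (exact sign-flip p = 0.0625, adjusted p = 0.1125 for each). The other steps did not stand out from the spread between tumors, and Fos was above Egr1 in only 1 of 6 tumors, so that its higher mean rests on tumor 36. Jun has an antisense gene, Junos, Jund has Gm11175, and Fosl1 overlaps the coding gene Ccdc85b on the other strand. Since the strand used in counting is not stated, reads of each of these pairs cannot be told apart.

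The Fos family genes as a share of all Jun and Fos family RPKM were 8.001%, 7.91% and 12.8% in Osx-Cre;NT3 tumors 13, 18 and 25, 12.1% in the FSP1-Cre;NT3 trunk tumor 29, and 20.1% and 30.7% in the perineal tumors 27 and 36. Both perineal tumors thus lay above every trunk tumor, and tumor 29 lay within the range of the Osx-Cre;NT3 tumors. By line the shares were 21.0% ± 9.34 (SD, n = 3) in FSP1-Cre;NT3 and 9.56% ± 2.78 (SD, n = 3) in Osx-Cre;NT3 tumors, a difference of 11.4 percentage points (two-sided exact permutation p = 0.2, where 3 against 3 allows no p below 0.1). By site they were 25.4% ± 7.45 (SD, n = 2) in perineal and 10.2% ± 2.59 (SD, n = 4) in trunk tumors, a difference of 15.2 points (two-sided exact permutation p = 0.0667, the smallest that 2 against 4 allows). Neither design can reach 0.05, and the second one was at its limit. Without tumor 36 the perineal share is that of tumor 27 alone, 9.95 points above the trunk mean.

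Within the Fos family, Fosl2, the Fra-2 gene, made up 70.5% to 90.4% of the RPKM in 5 tumors and 43.5% in tumor 36. Of the whole Jun and Fos sum in tumor 36, Fosl2 made up 13.3%, Fos 12.7% and Fosb 4.47%. In the trunk tumors Fos was at most 1.70% and Fosb at most 0.138% of that sum. In tumor 27 the shares of Fos and Fosb were 4.85% and 0.924%. The Jun family sum was 111.8 RPKM in tumor 36 and 100.6 in tumor 27, against 68.1 to 106.3 in the trunk tumors.

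**Figure D1:**
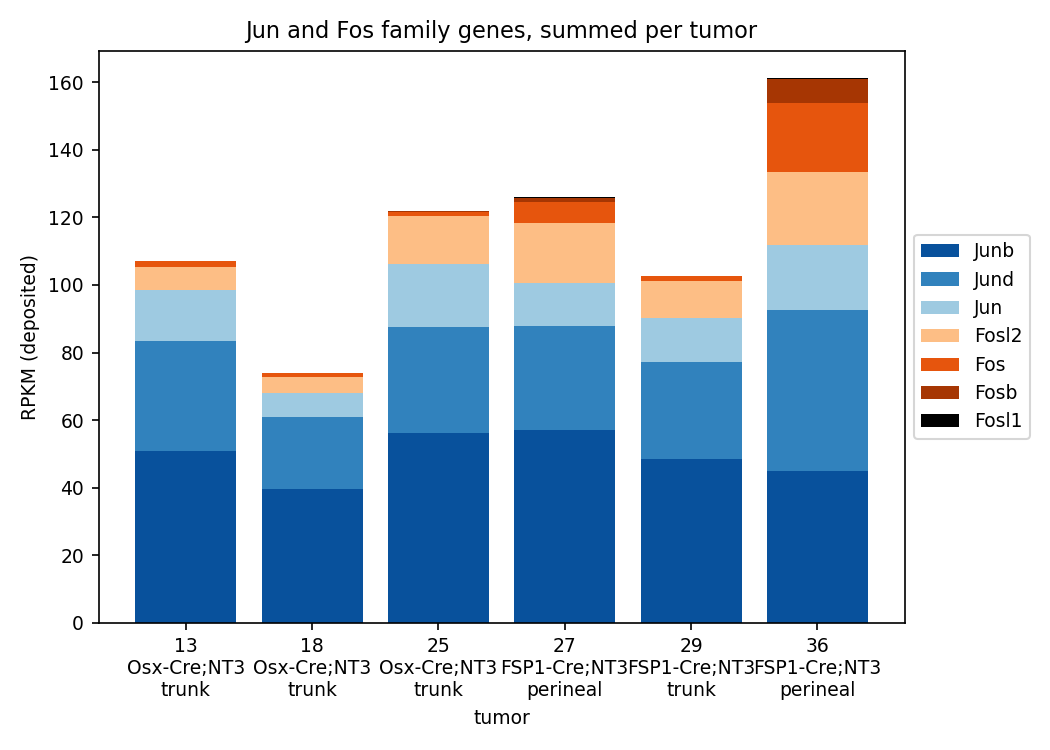
Deposited RPKM of the 7 Jun and Fos family genes, stacked for each of the 6 tumors, with the tumor number, line and site on the x axis and RPKM on the y axis from 0. The blue Jun family part lies between 68.1 and 111.8 RPKM in every tumor, while the orange Fos family part is 49.5 RPKM in tumor 36 and 25.4 RPKM in tumor 27 and at most 15.6 RPKM in the trunk tumors.

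Fos, Fosb and Egr1, 3 of the classical immediate early genes, were at higher levels in both perineal tumors than in any trunk tumor, and the trunk tumors of the 2 lines were close together. Fos, which encodes c-Fos, was at 5.09, 2.65 and 3.52 CPM in tumors 13, 18 and 25, at 3.87 CPM in tumor 29, and at 14.5 and 53.0 CPM in tumors 27 and 36. The FSP1-Cre;NT3 trunk tumor lay inside the Osx-Cre;NT3 range, and tumor 27 was 2.84-fold above the highest trunk tumor. Fosb was at 0.745, 0.377 and 0.507 CPM in the Osx-Cre;NT3 tumors, 0.539 CPM in tumor 29, and 4.97 and 33.7 CPM in tumors 27 and 36. Its 4 trunk tumors again overlapped, with both perineal tumors well above them. Egr1 was at 9.69, 6.37 and 5.94 CPM in the Osx-Cre;NT3 tumors, 8.13 CPM in tumor 29, and 21.4 and 34.6 CPM in tumors 27 and 36.

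Fosl1, the Fra-1 gene, was barely detected. It had 2, 6 and 2 counts in the Osx-Cre;NT3 tumors, 6 in tumor 29, and 28 and 42 in tumors 27 and 36. These are 0.028 to 0.077 CPM in the trunk tumors and 0.430 and 0.657 CPM in the perineal ones. The trunk counts are near the limit of 3 counts that a count of 0 allows, so a fold change against them depends on the prior count of the fit. Fosl2 was at 51.4, 37.1 and 101.4 CPM in the Osx-Cre;NT3 tumors, 79.1 CPM in tumor 29, and 118.6 and 156.3 CPM in tumors 27 and 36. Here the perineal tumors were also the highest, but tumor 27 was close to trunk tumor 25.

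The Jun family showed no such order. Jun was at 64.5, 30.2 and 73.1 CPM in the Osx-Cre;NT3 tumors, 51.8 CPM in tumor 29, and 45.8 and 76.3 CPM in tumors 27 and 36. Junb, whose protein can oppose Jun, was at 124.5, 96.2 and 127.3 CPM in the Osx-Cre;NT3 tumors, 111.8 CPM in tumor 29, and 119.0 and 102.6 CPM in tumors 27 and 36. Jund, the most constitutive of the 3 Jun genes, was at 124.9, 81.0 and 110.7 CPM, at 104.1 CPM in tumor 29, and at 99.9 and 169.2 CPM in tumors 27 and 36. In all 3 the perineal and trunk tumors overlapped.

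Atf3 was high in tumor 36 only. It was at 42.0 CPM there, and the other 5 tumors lay between 7.41 and 11.7 CPM, perineal tumor 27 included at 10.9 CPM. Ier3 was at 10.7, 13.8 and 9.18 CPM in the Osx-Cre;NT3 tumors, 9.54 CPM in tumor 29, and 16.9 and 22.04 CPM in tumors 27 and 36. In all, both perineal tumors were above every trunk tumor in 6 of the 10 genes (Fos, Fosb, Fosl1, Fosl2, Egr1 and Ier3) and below every trunk tumor in 0. Over the 16971 genes tested by site, 10.3% lay apart in the higher direction and 9.36% in the lower. Fosl1 is among the genes tested only through its perineal counts, so its place in this count rested on its being higher there.

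**Figure D2:**
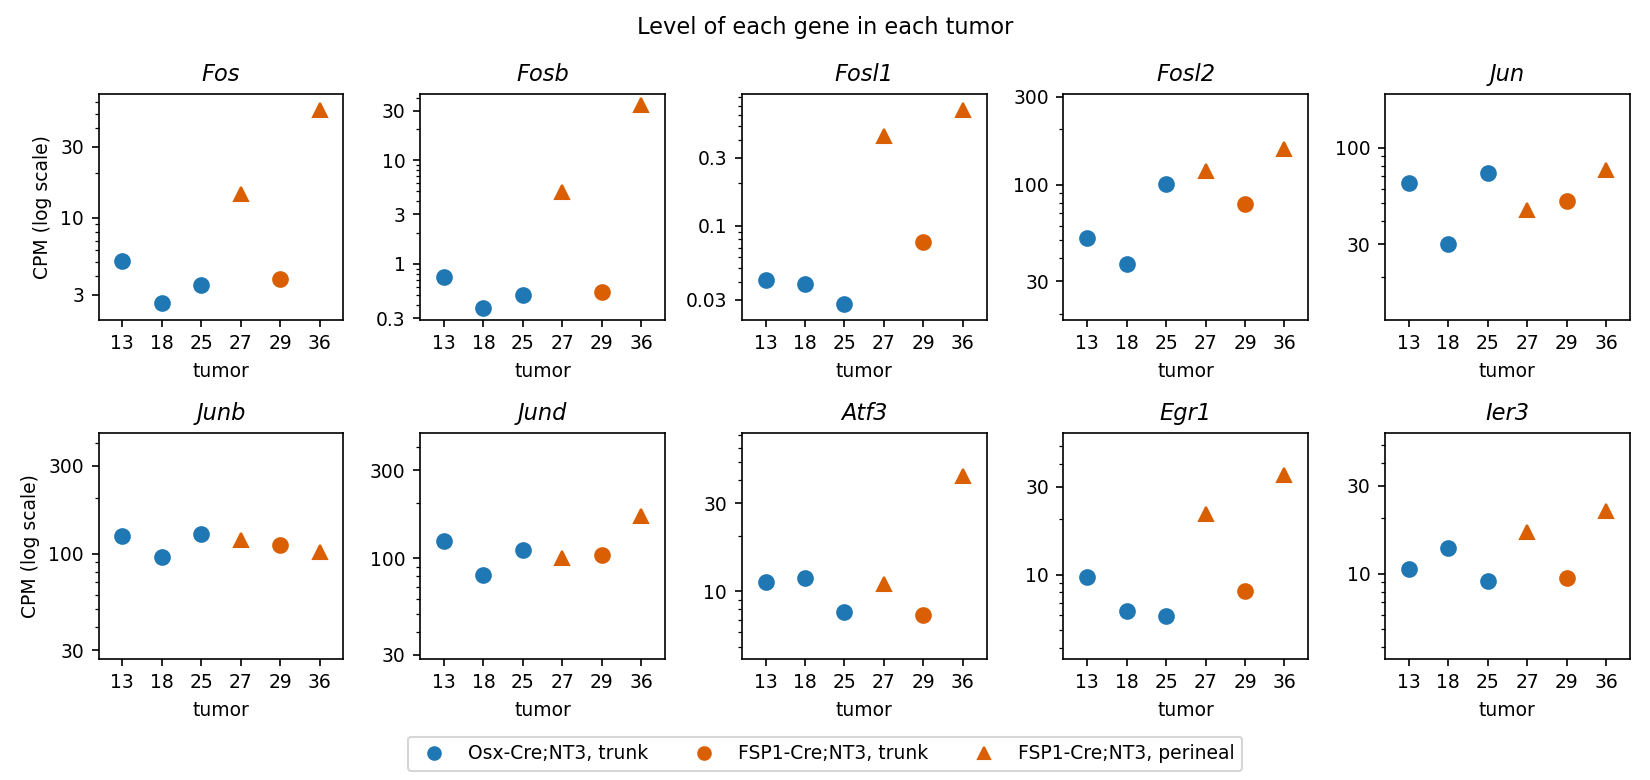
TMM-scaled CPM of each of the 10 genes on a logarithmic y axis for each tumor on the x axis, with Osx-Cre;NT3 in blue, FSP1-Cre;NT3 in orange, circles for trunk and triangles for perineal tumors. For Fos, Fosb, Fosl1 and Egr1 the FSP1-Cre;NT3 trunk tumor 29 lies near the Osx-Cre;NT3 tumors and far from the perineal tumors 27 and 36, and Atf3 is high in tumor 36 alone, at 42.0 CPM.

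The comparison of the 2 lines asked whether the Cre driver went with a difference in these genes. edgeR's quasi-likelihood test, with p-values adjusted by Benjamini-Hochberg over all 16415 genes tested, called 0 genes (0.0%) in either direction, and so none of the 9 of these genes that passed the filter on low counts. Fosl1 did not pass it. At an unadjusted p under 0.05 edgeR had 1770 genes (10.8%), of which FSP1-Cre;NT3 tumors were higher in 7.31% of all genes and lower in 3.47%. Among the 9, 3 were higher at that level and 0 lower, Fosb (log2 fold change 4.60 ± 1.39 SE), Fos (2.66 ± 0.89) and Egr1 (1.55 ± 0.53), each with an adjusted p of 0.458 by edgeR. DESeq2 with its own scaling called Fosb (adjusted p = 0.00293) and Fos (adjusted p = 0.0379), where it called 2.14% of all genes higher and 0.414% lower. In 0 of the 9 genes did the lines lie apart, against 9.03% of all genes in the higher and 7.97% in the lower direction. Fosl1, which was not tested, lay apart in the higher direction in CPM, with 6 counts in tumor 29 and 2 to 6 in the Osx-Cre;NT3 tumors. Among the trunk tumors alone, 1 against 3, the log2 fold change between the lines was 0.04 ± 0.58 (SE) for Fos, -0.01 ± 0.88 for Fosb and 0.15 ± 0.49 for Egr1. That fit assumes that the lone tumor 29 varies like the others. Without tumor 36 the edgeR log2 fold change between the lines was 2.35 for Fosb, 1.29 for Fos and 1.01 for Egr1, and DESeq2 called 196 genes and none of these 9. DESeq2 also lost Fos without tumor 13 or 18. It gained Fosl2 without tumor 25 (DESeq2 adjusted p = 0.00186), where it called 3650 of 16820 genes, 1629 higher and 2021 lower. It gained Egr1 and Fosl1 without tumor 29, where it called 731 of 16752 genes. Only perineal tumors are then left in the FSP1-Cre line.

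The 3 Jun genes and Fosl2, Atf3 and Ier3 did not pass the test by line under either tool with all 6 tumors. For the Jun family the 95% interval of the log2 fold change was -0.83 to 0.93 for Jun, -0.50 to 0.38 for Junb and -0.43 to 0.90 for Jund, so that for Junb a doubling lies outside the interval and for Jun and Jund only just. For Fosl2 the interval was -0.11 to 1.91, for Atf3 -0.57 to 2.52 and for Ier3 -0.33 to 1.38.

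The sites were compared next, since both perineal tumors come from the FSP1-Cre line. edgeR again called 0 of 16971 genes (0.0%), with a smallest adjusted p of 0.263. At an unadjusted p under 0.05 it had 1784 genes (10.5%), 8.88% higher and 1.63% lower in the perineal tumors. Of these 10 genes, 7 were higher at that level and 0 lower. The log2 fold change was 5.16 ± 0.71 (SE) for Fosb, 3.50 ± 0.67 for Fosl1, 3.15 ± 0.50 for Fos and 1.89 ± 0.31 for Egr1, each with an edgeR adjusted p of 0.263. It was 1.47 ± 0.50 for Atf3, 1.02 ± 0.39 for Fosl2 and 0.84 ± 0.28 for Ier3, with edgeR adjusted p-values of 0.373, 0.429 and 0.349. Jun, Jund and Junb were at 0.15, 0.35 and -0.06, with 95% intervals of -0.76 to 1.05, -0.32 to 1.02 and -0.56 to 0.44. Fosl1 entered this test through its 28 and 42 counts in the perineal tumors, since its trunk counts alone would not pass the filter, so its place among the genes tested already rested on its being higher there. Without it, 6 of 9 genes were higher. DESeq2 called 4 of the 10 higher, Fosl1 again among them, Fosb (adjusted p = 3.4e-09), Fos (1.6e-05), Egr1 (1.0e-04) and Fosl1 (0.0169), where it called 3.34% of all genes higher and 0.23% lower.

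The site result depends on which perineal tumor is kept. Without tumor 36 the log2 fold change by edgeR was 3.20 for Fosb, 3.17 for Fosl1, 1.93 for Fos, 1.51 for Egr1, 0.82 for Fosl2, 0.65 for Ier3 and 0.19 for Atf3, with none called, and DESeq2 called Fosb alone among the 10. Fosl1 was called by DESeq2 with all tumors and without tumor 29, but not without tumor 13, 18, 27 or 36, and without tumor 25 DESeq2 gave it no adjusted p. Without tumor 27, edgeR called 567 genes, among them Fosb, Fos, Egr1 and Atf3. In the fits without tumor 36 or without tumor 27 the perineal arm is a single tumor. All of the spread then comes from the trunk tumors, and the lone tumor is assumed to vary like them. Within the FSP1-Cre line alone, 2 perineal tumors against tumor 29, the log2 fold change was 5.15 ± 1.78 (SE) for Fosb, 3.11 ± 1.11 for Fos, 2.78 ± 1.05 for Fosl1 and 1.77 ± 0.50 for Egr1, with no gene called.

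**Figure D3:**
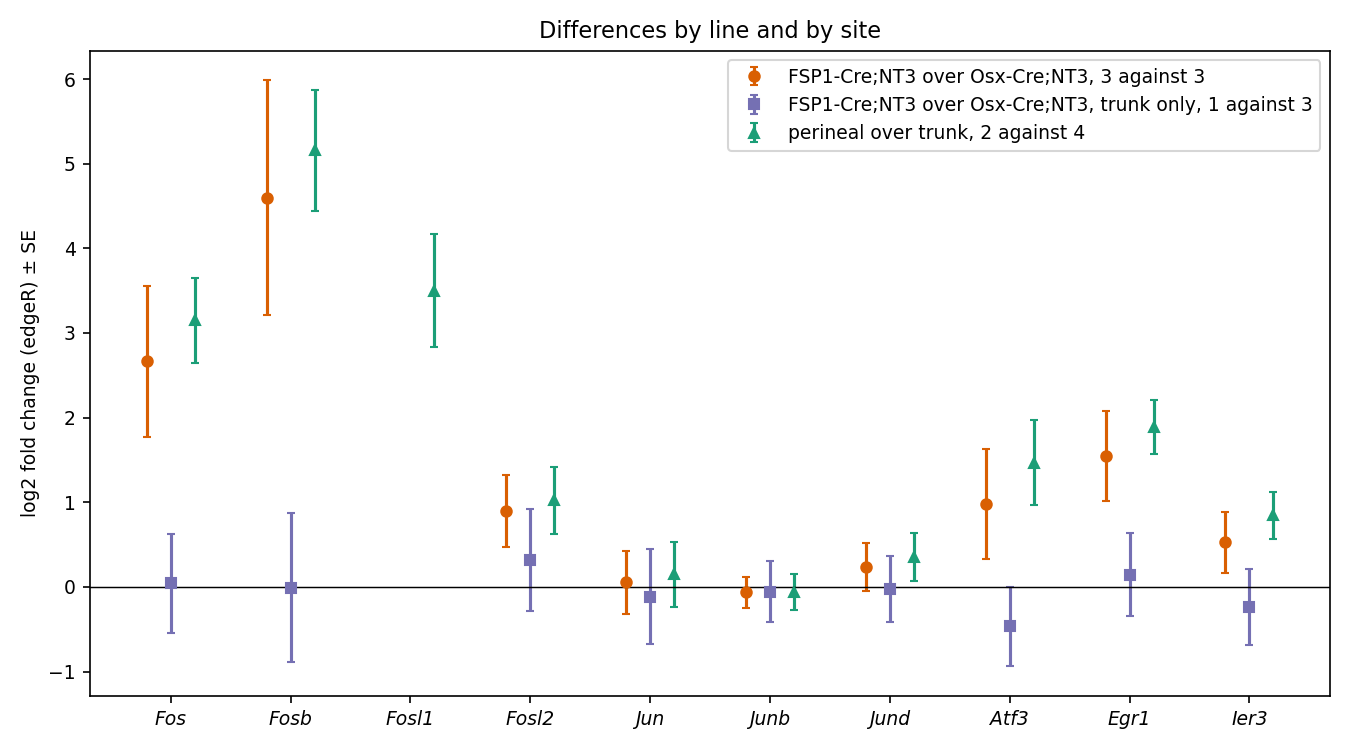
edgeR log2 fold change ± SE (y axis) of the 10 genes (x axis) between the lines over all 6 tumors (orange circles), between the lines over the 4 trunk tumors (purple squares) and between the sites over all 6 tumors (green triangles). For Fos, Fosb and Egr1 the difference between the lines is 2.66, 4.60 and 1.55 over all tumors and 0.04, -0.01 and 0.15 over the trunk tumors. Fosl1 was tested by site only.

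Markers of other cell types also lay apart by site in these tumors, beside 10.3% of all genes apart in the higher and 9.36% in the lower direction. Neutrophil markers summed to 166.1 and 481.4 CPM in tumors 27 and 36 against 23.7 to 67.5 CPM in the trunk tumors, with 5 of 6 genes apart. Adipocyte markers summed to 63.6 and 197.7 CPM against 25.1 to 51.9 CPM, with 5 of 6 apart, Adipoq, Plin1 and Cidec among them. The exception was Lpl, which made up most of the sum in every trunk tumor, at 17.6 to 48.7 CPM. Lpl was at 27.4 CPM in tumor 27, within that trunk range, and at 69.5 CPM in tumor 36. Plin1 and Cidec were at 0.0414 to 0.624 CPM in the trunk tumors and at 2.43 to 13.0 CPM in the perineal ones. Both were at 0.0414 CPM in tumor 13, below the 0.0579 CPM that 3 counts made there by total count. Lymphocyte markers summed to 74.2 and 64.1 CPM against 34.0 to 58.0 CPM, with 5 of 6 apart, and endothelial markers to 457.4 and 366.9 CPM against 124.8 to 329.2 CPM, with 4 of 6 apart. By line, fibroblast markers were apart in 6 of 6 genes, higher in FSP1-Cre;NT3, beside 9.03% of all genes. None of the marker genes was at 0 in all tumors. The part of these cells in the levels of the early genes was not tested, and neither was that of RNA quality, whose mean RNA integrity number was 8.5 in FSP1-Cre;NT3 and 7.7 in Osx-Cre;NT3 tumors.

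Over all 45 pairs of the 10 genes the median Pearson r of log2 CPM over the 6 tumors was 0.711, with 38 pairs above 0, against a median of -0.01 over all pairs of the 16415 genes tested. By the exact permutation test 12 pairs had an unadjusted p under 0.05, and 0 passed after adjustment over the 45, with a smallest adjusted p of 0.0625. The 6 pairs among Fos, Fosb, Fosl1 and Egr1, which were taken because these genes were high in both perineal tumors, had an r of 0.940 to 0.998 and a Spearman rho of 0.886 to 1, given as a description of that choice. Over the 4 trunk tumors r was 0.997 for Fos with Fosb and 0.832 for Fos with Egr1, but 0.132 to 0.511 for Fosl1, at 2 to 6 counts, with the other three. The relation of Fosl1 to the others therefore rests on tumors 27 and 36.

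As a description of which other genes were most like them over the 6 tumors, the 5 genes with the highest Pearson r were taken among 14153 genes with a mean of at least 1 CPM. For Fos they were Kctd7, Rgs7bp, Gucy1b3, Hk3 and Angptl7, with r from 0.991 to 0.984. For Fosl1 they were Cd97, Calcrl, Fyn, Egr2 and Npy1r, with r from 0.995 to 0.988. Of these, Egr2 is itself an immediate early gene, at 1.18 to 2.69 CPM in the trunk and 6.32 and 11.5 CPM in the perineal tumors. For Jun they were Ppp2r5b, Alox12e, Trp53i11, Parva and Rabgef1, with r from 0.988 to 0.967. With 6 tumors and this many candidates, values of this size are a ranking only.

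Among 31 other immediate early genes, 30 were tested and 0 called by edgeR in either comparison. By site 12 were higher at an unadjusted p under 0.05 and 0 lower, beside 8.88% and 1.63% of all genes, and the median log2 fold change was 0.59 against -0.02 over all genes. By line 10 were higher and 0 lower, beside 7.31% and 3.47% of all genes, with a median of 0.58 against 0.01. Without tumor 36, which leaves tumor 27 as the only perineal tumor, the median by site was 0.40, against -0.03 over all genes. The orphan nuclear receptor gene Nr4a3 had the largest difference by line (log2 fold change 3.40 ± 0.84 SE, edgeR adjusted p = 0.441). It was at 0.083 to 0.436 CPM in the trunk and 1.66 and 3.19 CPM in the perineal tumors. Nr4a3 in tumor 13, at 0.083 CPM, was close to the 0.0579 CPM that 3 counts made there by total count. Its relative Nr4a1, named after its values were seen, was at 3.49 to 4.62 CPM in the trunk tumors and at 21.9 and 53.0 CPM in tumors 27 and 36. The more abundant Zfp36l1 and Btg1, which encode an mRNA decay factor and an antiproliferative protein, showed log2 fold changes by site of -0.17 ± 0.40 and -0.04 ± 0.23. Arc was lowest by line, at -1.17 ± 0.68, and was highest in trunk tumor 25 at 32.8 CPM.

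Of 14 other basic leucine zipper genes related to AP-1, 4 were higher by site at that level, Batf2 and Creb5 among them, and 0 lower, beside 8.88% and 1.63% of all genes, with a median of 0.27. Without tumor 36 the median was 0.35, against -0.03 over all genes. Batf2 was at 15.0 CPM in tumor 36 and at 0.479 to 1.90 CPM in the other 5. Atf4, the most abundant of the group, was at 150.3 to 212.2 CPM with no order by site, and Batf was at -0.32 ± 0.63 by line. Among 18 MAP kinase and serum response factor regulators 2 were higher by site at that level, Rps6ka1 and Rps6ka3, and 0 lower, a share near the 8.88% of all genes. Their median was 0.20 with all tumors and 0.18 without tumor 36. The kinase genes Mapk3 and Map2k2 were at 0.33 ± 0.30 and -0.22 ± 0.22, and Elk4, a partner of serum response factor, at 0.81 ± 0.55.

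The MAP kinase feedback genes, whose products switch the pathway off again, were higher by site at an unadjusted p under 0.05 in 5 of 11 (Dusp1, Dusp2, Dusp5, Dusp6 and Spry1) and lower in 0, beside 8.88% and 1.63% of all genes, with a median of 0.71. Without tumor 36 the median was 0.65, against -0.03 over all genes. Dusp5, a nuclear phosphatase of ERK, was at 0.704 to 1.13 CPM in the trunk tumors and at 2.82 and 3.31 CPM in tumors 27 and 36. Dusp4 was at -0.30 ± 0.67 by site and was highest in trunk tumor 25, at 110.8 CPM. Of 16 genes known as AP-1 targets 5 were higher at that level, Plaur, Hbegf, Timp1, Il6 and Sprr1b, and 1 lower, Plau, beside the same 8.88% and 1.63%. Without tumor 36 the median went from 0.81 to 0.15, against -0.03 over all genes. Il6, a cytokine gene, was at 0.169 to 0.844 CPM in the trunk tumors and at 2.76 and 3.03 CPM in the perineal ones. Sprr1b, a cornified envelope gene, was at 14.8 CPM in tumor 36 and at 0.368 CPM in tumor 27, within the trunk range of 0.113 to 1.82 CPM. Hbegf was at 16.5 CPM in tumor 36 and at 4.42 CPM in tumor 27, within the trunk range of 2.90 to 4.96 CPM. The most abundant targets, Ccnd1 and Cd44, were at -0.27 ± 0.40 and 0.03 ± 0.45, and the collagenase gene Mmp13 at -0.05 ± 0.79.

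Of 11 NF-κB feedback and early response genes, 2 were higher by site at that unadjusted level, Nfkbiz and Cxcl1, and 1 lower, Ccl20, beside 8.88% and 1.63% of all genes, with a median of -0.40. Without tumor 36 the median was 0.06, against -0.03 over all genes, so that the sign of the median rests on that tumor. Ccl20, a chemokine gene, was at 955.5, 1431 and 1260 CPM in the Osx-Cre;NT3 tumors and at 441.0, 389.1 and 371.2 CPM in tumors 27, 29 and 36, so that the lines lay apart and tumor 29 sided with its line (log2 fold change by line -1.60 ± 0.24 SE, edgeR adjusted p = 0.359). Nfkbia, the IκBα gene, was at 355.3 CPM in tumor 36 and 594.5 to 867.4 CPM in the other 5. Of 8 heat shock genes 4 were lower by site at the same level, Dnajb1, Hsph1, Hspb1 and Hspe1, and 0 higher, beside 1.63% of all genes lower and 8.88% higher, with a median of -0.64. These counts come from the fit that includes tumor 36. Without tumor 36 only tumor 27 is perineal, which is too little to test the counts again. The median was then -0.54, against -0.03 over all genes. Hspe1, a mitochondrial chaperonin gene, was at 162.3 and 144.0 CPM in tumors 27 and 36 and at 212.2 to 399.2 CPM in the trunk tumors. Hspa8 and the stress-induced Hspa1a were at -0.17 ± 0.31 and 0.17 ± 0.70. No gene of these lists was called by edgeR.

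**Figure D4:**
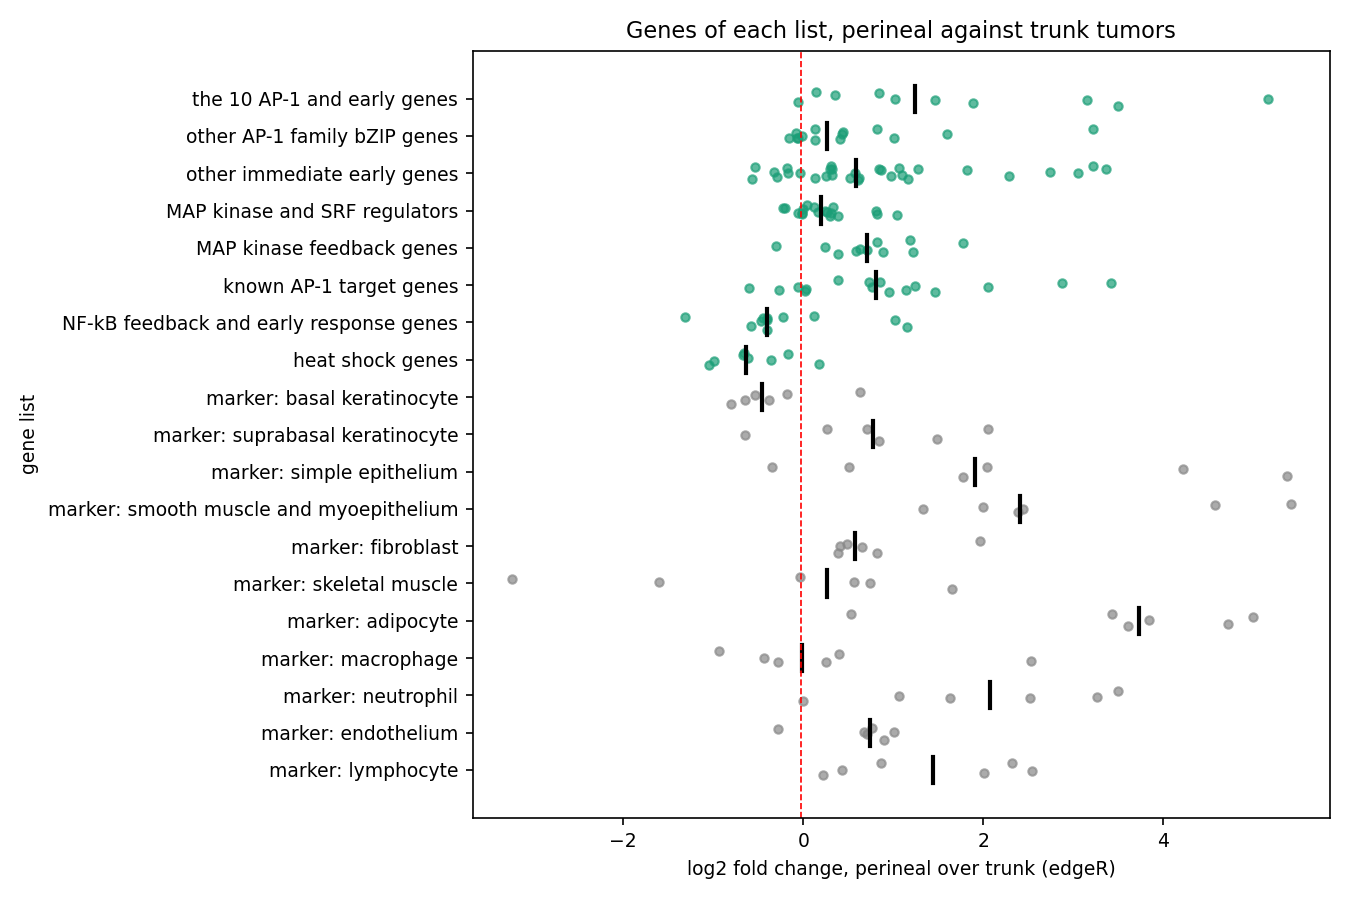
edgeR log2 fold change of perineal over trunk tumors (x axis) for the tested genes of each list (y axis). Each point is 1 gene, spread vertically at random for legibility, the black bar is the median of the list, and the red dashed line is the median of all genes at -0.02. Marker lists of cell types are in grey. The 10 genes, Fosl1 included, have a median of 1.25, the other immediate early genes 0.59, the heat shock genes -0.64 and the adipocyte markers 3.72. Fosl1 was tested only through its perineal counts.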

How the data were processed

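The authors deposited counts per gene without normalization and RPKM values for 6 tumors. The sources differ on how these were made. The study's methods give trimming, HISAT2 (Galaxy version 2.1.0) and featureCounts with standard settings, whereas the submitters' processing notes name bcl2fastq, TopHat2 2.0.6 and HTSeq. Both name the mouse build mm10. The annotation and the strand of counting are not given in the sources used here. All deposited counts are even numbers, which would follow if read pairs were entered by end, and the limit from 3 counts would then be higher. No molecular identifiers are mentioned, so this limit concerns counting error alone.

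Tests on counts used edgeR 4.0.16 under R 4.3.3 (filterByExpr, TMM, glmQLFit, glmQLFTest, no covariate, Benjamini-Hochberg adjustment over all genes tested, threshold 0.05), with DESeq2 1.42.0 on the same genes as the alternative. CPM values are TMM-scaled, with a prior count of 2 for log2 CPM. Deposited RPKM values were used to compare genes and for the shares. The p-values measure the spread between tumors of different mice. Scripts were tested on simulated data. Alternatives were library sizes alone, upper-quartile scaling, other filters (at least 10 counts in every tumor, or none), halved counts, site or line as a covariate, subsets by site or line, Spearman correlation, another prior count, and leaving out each tumor. DESeq2 without each tumor, and the gene lists and the share by site without tumor 36, were chosen after seeing the data.

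The 10 genes, the gene lists and the tests were chosen with earlier results of these data known. The genes named are the 10, and for each other list those at the extremes of mean RPKM and of the difference by line. Genes named beyond this were chosen after their values were seen. Some genes of the lists are counted but not reported here by name. List counts use an unadjusted edgeR p under 0.05 in the fits with all tumors. Promoters and motif positions are from RefSeq, GRCm38.p6, and overlapping genes from GENCODE M21.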

Additional observations from a re-analysis of the deposited data

Results flagged for a closer look

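Among 11 results examined for a tumor far from the other 5, the 10 log2 CPM levels and the Fos family share, 1 stood out, where 0.55 would be by chance. Atf3 was at a log2 CPM of 5.39 in tumor 36, and the next tumor was at 3.55, a gap of 0.736 of the whole range and above Dixon's critical value. Tumor 36 also had the highest simple epithelium and smooth muscle markers, and the part of those cells in the Atf3 level was not tested.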

How the results depend on the processing

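No paired analysis was possible because the lines share no replicate numbers. edgeR called 0 genes under the other scalings, filters, covariates and subsets of both comparisons. DESeq2 called 420 genes by line and 605 by site, and leaving out 1 tumor in turn with either tool gave 0 to 3650 (3650 with DESeq2 without tumor 25) by line and 0 to 1492 (1492 with DESeq2 without tumor 27) by site. The median correlation was 0.486 with Spearman's rho and 0.342 to 0.749 without each tumor, the lowest without tumor 36. The difference in the Fos family share by line was 6.54 to 15.8 points without each tumor. Of 378 alternative values of single genes 311 kept their direction and side of the threshold, which says nothing of their size (Fosb by line was 0.0026 with site as a covariate), 40 passed it only in the alternative, and 27 changed sign, none of them called. For 1 more, DESeq2 gave no adjusted p. With site as a covariate and with trunk tumors alone, the line log2 fold change became -0.11 and -0.11 for Jun, -0.019 and -0.023 for Jund, -0.46 and -0.47 for Atf3 and -0.23 and -0.24 for Ier3, and with trunk tumors alone -0.0070 for Fosb. With library sizes alone Junb became 0.052 by line and 0.042 by site. Without each tumor in turn the range was, by line, -0.26 to 0.28 for Jun, -0.067 to 0.37 for Jund and -0.18 to 1.37 for Atf3, and by site -0.30 to 0.48 for Jun, -0.20 to 0.049 for Junb and -0.11 to 0.69 for Jund. The cause of these changes was not tested. Depth limits only Fosl1, and the number of tumors limits the rest, since 2 perineal tumors of 1 line carry the site comparison.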
